A study of Mus musculus with 4 samples.

Results

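CDK1, the mitotic cyclins and the enzymes that switch CDK1 on and off were followed in haploid and diploid mouse embryonic stem cells (ESCs). The group holds 10 genes, Cdk1, Ccnb1, Ccnb2, Ccna2, Wee1, Pkmyt1, Cdc25a, Cdc25b, Cdc25c and Plk1. Its members were the array probes whose accession in the scanner files belongs to 1 of these genes in RefSeq, which gave 14 of the 39429 probes on the array. Cdk1 and Ccnb1 had 3 probes each and the other 8 genes had 1. All 14 probes cleared the background on each of the 4 arrays.

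The study compared 2 samples of parthenogenetic haploid ESCs, from line 1 and line 2, with 2 samples of parthenogenetic diploid ESCs, also from a line 1 and a line 2. All are female, and as parthenogenetic cells, which come from an unfertilised egg, all carry only a maternal genome. No treatment, transgene or time course is named, and strain, passage and any sorting by ploidy or cell cycle phase are not given in the sources used here. Every sample was read on a separate 1-colour Agilent array, on which a probe's brightness follows the amount of its transcript. The series' title names the passage from G2 into mitosis in haploid ESCs as its subject, and the comparison asks whether transcripts of the core machinery of that passage differ with ploidy.

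CDK1 is the kinase whose activity drives a cell from G2 into mitosis. It needs a cyclin to be active: cyclin A2 (Ccna2) works in S phase and G2 and is destroyed early in mitosis, and the B cyclins (Ccnb1, Ccnb2) carry CDK1 through mitosis until the anaphase-promoting complex marks them for destruction. WEE1 and PKMYT1 (also called MYT1) hold the complex inactive by phosphorylating CDK1, the CDC25 phosphatases remove those phosphates, and PLK1 favours the active state by acting on CDC25C and WEE1. Active CDK1 in turn activates CDC25 and inhibits WEE1, which makes entry into mitosis switch-like. ESCs divide quickly with short gap phases and express these genes at high levels. Much of the control acts on the proteins, by phosphorylation and destruction, which an array of RNA does not measure.

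Many genes of this group share promoter elements. NF-Y binds CCAAT boxes, and the CHR element (TTTGAA) is bound by the DREAM and MYB-MuvB complexes, which repress such genes in resting cells and activate them in G2. RefSeq promoter sequences (GRCm38.p6, 250 bases before to 50 after a transcript's start) were at hand for 6 of the 10 genes. All 6 hold CCAAT on 1 strand or the other, against 37.4% of 32851 promoters in the table, and 3 of them (Cdk1, Ccnb2 and Plk1) hold TTTGAA on either strand, against 17.9%. The CHR and CCAAT letters do not overlap in any of the 6. The bases before the start are shown because genes with TTTGAA and genes without it lay on both sides of 0 in the comparison. Capitals mark CCAAT, its reverse complement ATTGG, and TTTGAA.
Cdk1, chr10:69352913-69353052, minus strand: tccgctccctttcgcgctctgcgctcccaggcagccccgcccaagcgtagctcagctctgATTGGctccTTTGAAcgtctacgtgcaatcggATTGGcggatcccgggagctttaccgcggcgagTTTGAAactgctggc
Ccnb1, chr13:100786487-100786626, minus strand: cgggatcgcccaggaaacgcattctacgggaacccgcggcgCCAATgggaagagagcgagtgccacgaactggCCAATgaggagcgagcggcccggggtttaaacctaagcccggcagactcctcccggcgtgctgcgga
Ccnb2, chr9:70421545-70421694, minus strand, to 10 bases into the transcript: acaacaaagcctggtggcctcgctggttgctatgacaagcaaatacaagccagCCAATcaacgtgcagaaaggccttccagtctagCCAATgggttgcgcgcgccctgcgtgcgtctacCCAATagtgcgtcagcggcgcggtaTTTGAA
Cdc25a, chr9:109875439-109875578, plus strand: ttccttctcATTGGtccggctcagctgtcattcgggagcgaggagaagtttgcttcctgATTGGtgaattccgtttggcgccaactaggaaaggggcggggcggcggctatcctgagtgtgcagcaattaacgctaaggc
Cdc25b, chr2:131186808-131186947, plus strand: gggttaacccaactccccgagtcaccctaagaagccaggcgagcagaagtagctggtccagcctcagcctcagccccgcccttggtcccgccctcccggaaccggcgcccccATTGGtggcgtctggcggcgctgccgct
Plk1, chr7:122159295-122159434, plus strand: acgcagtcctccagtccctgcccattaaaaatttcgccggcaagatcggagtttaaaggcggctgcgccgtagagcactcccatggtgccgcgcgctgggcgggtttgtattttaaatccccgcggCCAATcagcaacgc

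Cdk1 has TTTGAA at 71 and at 15 bases before the start and ATTGG at 80 and 48, and a further ATTGG at 208, before the bases shown. Ccnb2 has CCAAT at 87, 54 and 21 bases before the start, spaced evenly, and TTTGAA from base 5 to base 10 of the transcript, with another at 167 bases before the start, outside the bases shown. Ccnb1 has CCAAT at 99 and 67 bases before the start and no TTTGAA. Plk1 has 1 CCAAT at 14 bases before the start, and its TTTGAA lies at bases 31 to 36 of the transcript, past the bases shown. Cdc25a has ATTGG at 131 and 81 bases before the start, and Cdc25b once, at 28. Only the exact letters TTTGAA and CCAAT, on either strand, were searched for, and no other form of the CHR element was. The letters describe these windows and do not show a bound site.

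Values below are log2 of the processed signal minus the array's 75th percentile, so 0 is the 75th percentile of an array's signal and 1 unit is a doubling. A difference is the haploid mean minus the diploid mean, with its standard error (SE) from limma, fitted over all 21784 probes past the background filter, n = 2 per group. Levels are compared between arrays for 1 probe and not between probes. The 75th percentile of the signal ran from 525 to 909 intensity units over the 4 arrays, and 53.6% to 65.0% of probes were well above background. Over all probes tested the median difference was 0.013. With 2 arrays per group, intervals are given beside the p-values.

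No member was called different between haploid and diploid cells. By limma 0 of the 14 probes passed an adjusted p of 0.05, and 0 had an unadjusted p under 0.05. In the same fit 2484 of 21784 probes had an unadjusted p under 0.05. Among the 10 genes' brightest probes, 2 had an unadjusted p under 0.05 with quantile normalization, cyclic loess or the authors' value table. Of all 21784 probes, 2685, 2677 and 2723 did in these settings. With trend and robust variance 3 of the 10 did, and 3030 of 21784 probes. With normexp after removal of spots of high local background 3 of the 10 did, and 2783 of 21782 probes. In the fit as reported 22 of 21784 probes passed the adjusted threshold (0.101%), 16 of them higher and 6 lower in haploid cells. Adjusted p over the members ran from 0.469 to 0.857. Each value is a level in the whole population, in which a smaller share of cells in a phase and less RNA per cell cannot be told apart. By each gene's brightest probe, 4 genes lay above 0 (Cdk1, Ccnb1, Ccnb2, Pkmyt1) and 6 below (Ccna2, Wee1, Cdc25a, Cdc25b, Cdc25c, Plk1), with differences from -0.37 to 0.37. Of these, Cdk1, Ccnb1, Pkmyt1 and Cdc25b kept their side in all 15 alternative settings. Some of those settings change only the variance or the probes tested, so a side could not change under them. The median of the 10 was -0.11, against 0.019 over 13041 genes by the same rule, and it changed sign without haploid replicate 1 (0.021), without diploid replicate 2 (0.018) and with normexp background correction on all spots (0.12).

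The 95% intervals of the brightest probes give a range for each gene in this fit alone. The lowest bound of any was -0.79, or 1.73-fold lower in haploid cells, for Ccna2. The highest was 0.80, or 1.74-fold higher, for Ccnb1. Every one of the 10 intervals therefore lay within 1 log2 unit of 0 and included 0. Other probes and settings reached further. The dim Cdk1 probe A_55_P2016647 had an interval of -0.88 to 2.10. With normexp on all spots the brightest Ccnb1 probe differed by 0.81 ± 0.55 SE, and without the spots of high local background by 0.36 ± 0.15 SE.

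**Figure D1:**
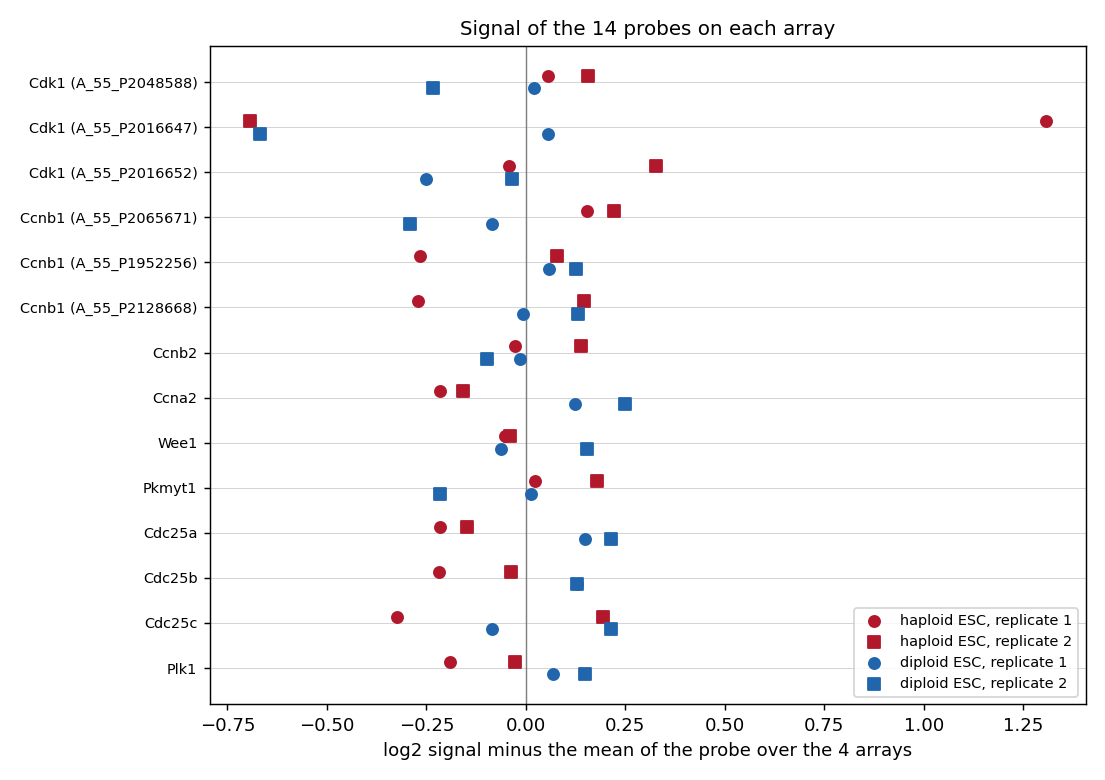
Log2 signal of each of the 14 probes on each array (x axis), minus the mean of that probe over the 4 arrays; red marks haploid and blue diploid ESCs, circles replicate 1 and squares replicate 2. Ccna2 and Cdc25a have both haploid arrays on the left and both diploid arrays on the right, the brightest Ccnb1 probe the reverse, and the Cdk1 probe A_55_P2016647 spreads widely within the haploid pair.

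Cdk1 itself was measured by 3 probes, all assigned to NM_007659. The brightest, A_55_P2048588, read 2.42 and 2.52 in haploid replicates 1 and 2 and 2.39 and 2.13 in diploid replicates 1 and 2. Both haploid arrays were above both diploid arrays, by a margin of a few hundredths of a unit between haploid replicate 1 and diploid replicate 1. The difference was 0.21 ± 0.18 SE, a 1.16-fold higher level in haploid cells (limma adjusted p = 0.664, 95% interval -0.23 to 0.65). Without diploid replicate 2 it was 0.085, and without diploid replicate 1 it was 0.34.

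The other Cdk1 probes were dim, and neither separated the groups. A_55_P2016652 read -3.84 and -3.47 in haploid and -4.05 and -3.83 in diploid replicates 1 and 2, with haploid replicate 1 just below diploid replicate 2. Its difference was 0.29 ± 0.21 SE (limma adjusted p = 0.612). A_55_P2016647 read -1.93 in haploid replicate 1 but -3.93 in haploid replicate 2, and -3.18 and -3.91 in diploid replicates 1 and 2. Its difference of 0.61 ± 0.62 SE (limma adjusted p = 0.715) rested on haploid replicate 1, and without that array it was -0.39. All 3 probes lay above 0 in the fit of all 4 arrays, and the brightest had the smallest standard error of the 3.

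Cyclin B1, the main mitotic partner of CDK1, gave probes that disagreed in sign. All 3 are assigned to NM_172301. The brightest, A_55_P2065671, read 4.07 and 4.14 in haploid and 3.83 and 3.62 in diploid replicates 1 and 2, so both haploid arrays were above both diploid arrays. The difference was 0.37 ± 0.18 SE, or 1.30-fold higher in haploid cells (limma adjusted p = 0.483). It stayed between 0.27 and 0.48 with any 1 array left out.

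The other Ccnb1 probes lay below 0. A_55_P1952256 read 2.0 and 2.35 in haploid and 2.33 and 2.39 in diploid replicates 1 and 2, a difference of -0.19 ± 0.19 SE (limma adjusted p = 0.722). A_55_P2128668 read 1.76 and 2.17 in haploid and 2.02 and 2.16 in diploid replicates 1 and 2, a difference of -0.12 ± 0.21 SE (limma adjusted p = 0.833). In both probes haploid replicate 1 was the lowest array, and haploid replicate 2 lay among or above the diploid arrays. With the probes of a gene averaged, Ccnb1 differed by 0.022 and Cdk1 by 0.37. A direction for Ccnb1 therefore depends on the probe, and the files used here hold no probe sequences to place the 3 along the transcript.

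Cyclin B2, a second B-type cyclin that is found largely at the Golgi, read 5.06 and 5.22 in haploid and 5.07 and 4.99 in diploid replicates 1 and 2. The groups overlapped, and only haploid replicate 2 stood above the rest. The difference was 0.11 ± 0.17 SE (limma adjusted p = 0.822), and it was -0.038 with quantile normalization, -0.043 with cyclic loess and -0.045 with the authors' value table. Probes as bright as Ccnb2, in the top of 10 brightness classes, had a median difference of 0.21.

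Cyclin A2 had the smallest p of the group. It read 2.90 and 2.95 in haploid and 3.24 and 3.36 in diploid replicates 1 and 2, so both haploid arrays were below both diploid arrays. The difference was -0.37 ± 0.17 SE, a level 1.30-fold higher in diploid cells (limma adjusted p = 0.469). It ran from -0.44 to -0.31 with any 1 array left out. With normexp it was 0.0057 on all spots and -0.43 without the spots of high local background. The gap between groups was larger than the gap within either group.

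Set against each other within an array, cyclin B1 and cyclin A2 stood apart in the 2 kinds of cell by the brightest Ccnb1 probe, a pair chosen after their values were seen. The log2 signal of Ccnb1 minus that of Ccna2 was 1.17 and 1.18 in haploid and 0.59 and 0.26 in diploid replicates 1 and 2, a difference of 0.75. With the probe A_55_P1952256 it was -0.89, -0.61, -0.91 and -0.97 in the same order, a difference of 0.19. With A_55_P2128668 the difference was 0.25. Only the change of this quantity between arrays can be read, since 2 probes' signals have no common scale. All 3 quantities subtract the same Ccna2 values, which were lower in haploid arrays, so they are not separate readings.

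The inhibitory kinases lay on either side of 0. Wee1, the nuclear kinase that phosphorylates CDK1, read 0.56 and 0.57 in haploid and 0.55 and 0.77 in diploid replicates 1 and 2. The groups overlapped, with diploid replicate 2 above the other 3 arrays. The difference was -0.092 ± 0.18 SE (limma adjusted p = 0.857), and 0.017 without diploid replicate 2. Pkmyt1, the membrane-bound kinase of the same role, read 3.28 and 3.44 in haploid and 3.27 and 3.04 in diploid replicates 1 and 2. Both haploid arrays lay above both diploid arrays, haploid replicate 1 by a hundredth of a unit, and the difference was 0.20 ± 0.18 SE (limma adjusted p = 0.682).

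All 3 phosphatase genes that act against these kinases lay below 0. Cdc25a, which also acts on CDK2 at the start of S phase, read 2.90 and 2.97 in haploid and 3.27 and 3.33 in diploid replicates 1 and 2. The groups did not overlap, and the difference of -0.36 ± 0.17 SE (limma adjusted p = 0.475) ran from -0.40 to -0.33 with any 1 array left out, the narrowest such range of the 10 genes. With normexp it was 0.050 on all spots and -0.38 without the spots of high local background. Cdc25b, thought to start the activation of CDK1 at the centrosome, read -0.47 and -0.29 in haploid and -0.12 on both diploid arrays. The groups did not overlap, and the difference was -0.26 ± 0.17 SE (limma adjusted p = 0.593). Cdc25c, a substrate of PLK1 and of active CDK1, read -1.22 and -0.71 in haploid and -0.99 and -0.69 in diploid replicates 1 and 2. The groups overlapped, the difference was -0.13 ± 0.24 SE (limma adjusted p = 0.848), and it was 0.13 without haploid replicate 1.

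The mean of the 2 inhibitory kinases minus the mean of the 3 phosphatases, within each array, was 1.52 and 1.35 in haploid and 1.19 and 1.06 in diploid replicates 1 and 2. Both haploid arrays were above both diploid arrays, by 0.30 between the group means. This quantity was formed with the members' values known and was not tested. It weighs the signals of 5 probes and says nothing of the activity of the enzymes.

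Plk1, the kinase that pushes the switch towards mitosis and later serves the spindle and cytokinesis, read 4.50 and 4.66 in haploid and 4.76 and 4.84 in diploid replicates 1 and 2. Both haploid arrays lay below both diploid arrays. The difference was -0.22 ± 0.17 SE (limma adjusted p = 0.639), and it was -0.36 with quantile normalization, cyclic loess or the authors' value table. With normexp it was 0.19 on all spots and -0.28 without the spots of high local background. Plk1 lies in the same top brightness class as Ccnb2, where the median difference was 0.21. The medians of the members' other classes ran from -0.089 to 0.080.

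**Figure D2:**
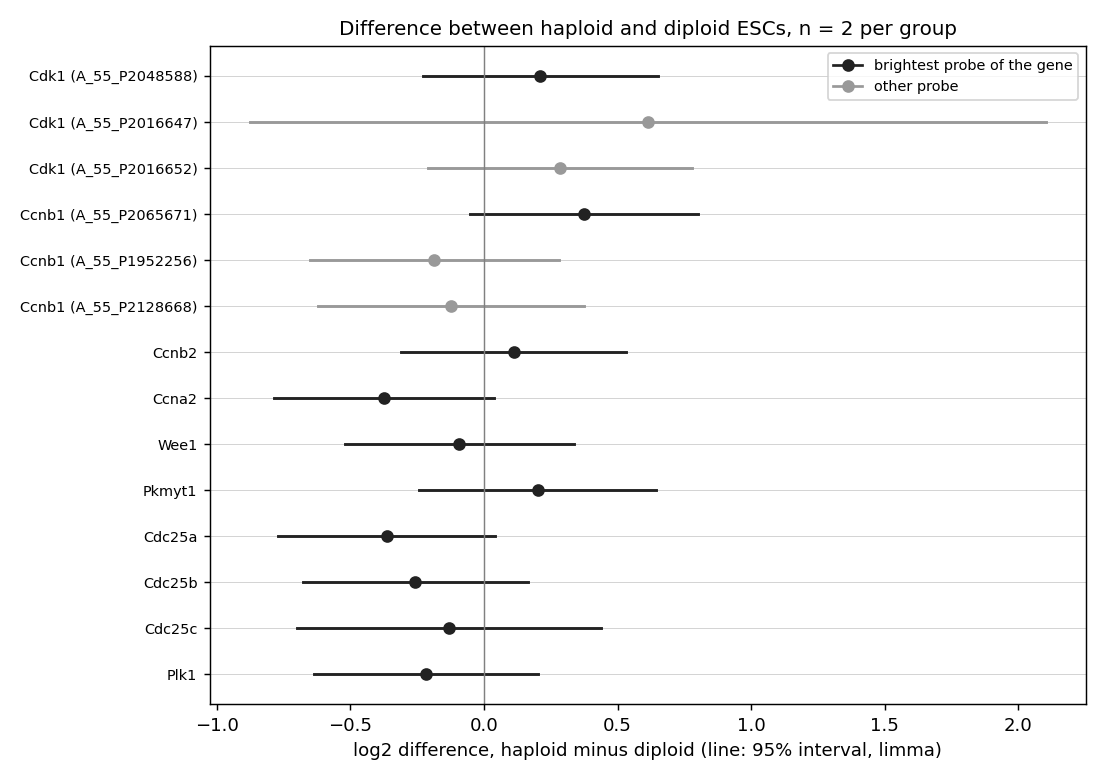
Log2 difference, haploid minus diploid (x axis), of each of the 14 probes as a point with its 95% interval from limma as a line; black marks the brightest probe of a gene and grey its other probes, n = 2 per group. Every interval crosses 0, and the dim Cdk1 probe A_55_P2016647 has by far the widest.

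Counted over the group, 3 of the 14 probes had both haploid arrays above both diploid arrays (the brightest Cdk1 and Ccnb1 probes and Pkmyt1), where 25.0% of all probes tested did. There were 4 with both haploid arrays below (Ccna2, Cdc25a, Cdc25b and Plk1), where 21.2% of all probes did, and 7 overlapped. By gene the counts were 3 of 10 above, where 25.8% of all genes were, and 4 of 10 below, where 21.7% were. These counts are a description, since Cdk1 and Ccnb1 each fill 3 of the 14 places. The members' differences were about as large as those of other probes, with a median size of 0.21 over the 10 genes against 0.20 over all probes. Haploid replicate 2 read above haploid replicate 1 in 13 of the 14 probes, against 54.9% of all probes, with the dim Cdk1 probe A_55_P2016647 the exception. Diploid replicate 2 read above diploid replicate 1 in 9 of the 14, against 48.3%. The gap between the haploid replicates had a median size of 0.13 over the 10 genes, and that between the diploid replicates 0.17.

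**Figure D3:**
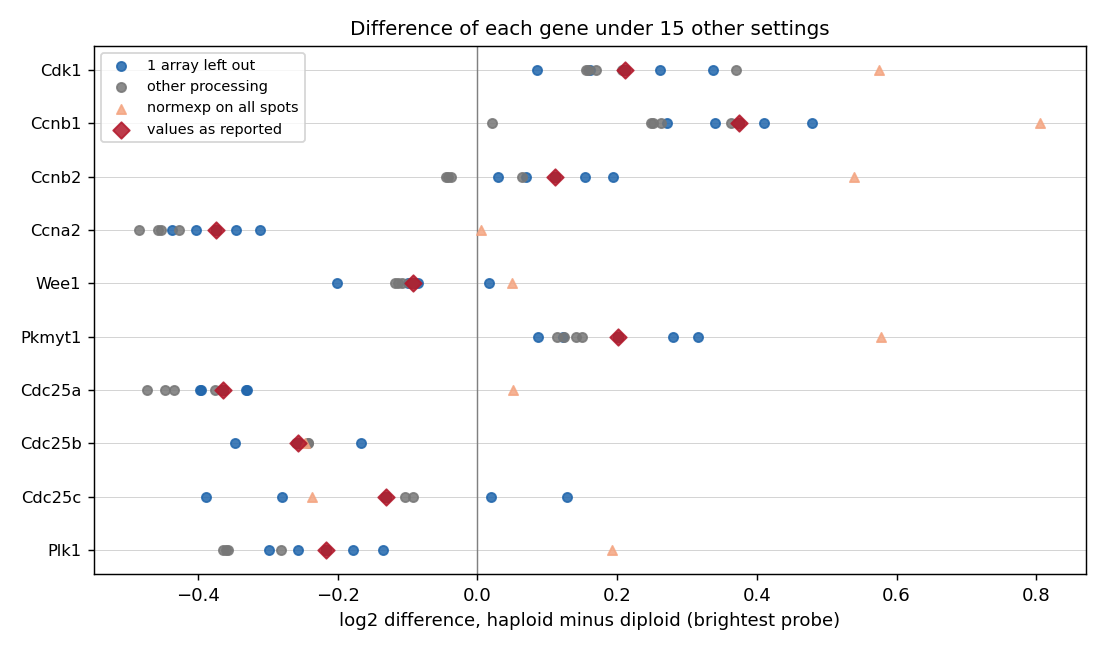
Log2 difference, haploid minus diploid (x axis), of each gene's brightest probe as reported (red diamonds), with 1 array left out (blue), under other processing (grey; for the mean of a gene's probes, that mean) and with normexp on all spots (orange triangles). Cdk1, Ccnb1, Pkmyt1 and Cdc25b stay on 1 side of 0 in all 15 alternatives, and the other 6 genes change side in at least 1. Alternatives that change only the variance or the probes tested cannot move a point.

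The pattern of Cdk1 over the 4 arrays was compared with 12661 other named genes, each centred on its own mean, by root mean square distance of the log2 values. The nearest were Mcm6, a subunit of the replicative helicase, at 0.013, Sra1, at 0.014, and Ccdc124, at 0.014. Among the members the nearest was Pkmyt1, at 0.022, followed by Ccnb2 at 0.081 and Ccnb1 at 0.084, and the farthest were Cdc25a at 0.31 and Ccna2 at 0.32. Among 12661 genes compared on 4 arrays some distances will be small whatever the genes do, so the distances are a description.

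The wider pathway was read from lists by each gene's brightest probe past the background filter. The lists were chosen with earlier results of these data known, so their counts are a description. In none of the lists did a gene pass limma's test over all probes, which 0.0767% of all genes passed by this rule. Of 17 other cyclins, CDKs and binding partners 13 could be tested, 6 above and 7 below 0, with a median of -0.0030. Ccnd1 (cyclin D1, a G1 cyclin) differed by -0.67 ± 0.21 SE (limma adjusted p = 0.317). Cdkn3, a phosphatase that acts on CDKs, differed by 0.31 ± 0.17, and Ccnh, the cyclin of the CDK-activating kinase, by 0.30 ± 0.18. Ccna1, Ccnb3, Ccne2 and Cdk6 did not reach the filter.

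Greatwall (Mastl) and its targets restrain PP2A-B55, the phosphatase that opposes CDK1. Of its 9 genes 2 lay above and 7 below 0, with a median of -0.17, which ran from -0.21 to -0.11 with any 1 array left out. With normexp the median was 0.12 on all spots and -0.13 without the spots of high local background. Mastl differed by -0.32 ± 0.21 SE (limma adjusted p = 0.576), its target Arpp19 by -0.28 ± 0.18, and the B55 subunit gene Ppp2r2a by -0.26 ± 0.17. The Arpp19 probe was dim, at -3.48 and -3.39 in haploid and -3.27 and -3.05 in diploid replicates 1 and 2. Both haploid arrays were below both diploid arrays in 4 of the 9, against 21.7% of all genes.

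Of 16 kinases, adaptors and ubiquitin ligase parts that act on the switches, 7 lay above and 9 below 0 (median -0.017). The checkpoint kinase gene Chek1, whose product restrains CDC25 phosphatases, differed by -0.46 ± 0.18 SE (limma adjusted p = 0.412). Its probe was dim, at -4.23 and -4.06 in haploid and -3.77 and -3.59 in diploid replicates 1 and 2. Fbxo5, an inhibitor of the anaphase-promoting complex, differed by -0.32 ± 0.17, and Bora, which helps Aurora A activate PLK1, by -0.36 ± 0.21. Of 16 transcription factor genes 7 lay above and 9 below 0 (median -0.023). Lin37, a DREAM and MuvB subunit, differed by 0.37 ± 0.17 SE (limma adjusted p = 0.470), E2f2 by -0.35 ± 0.17, and Nfyc, a subunit of NF-Y, by 0.35 ± 0.22.

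The other G2/M genes, many of which serve the spindle, kinetochore or cytokinesis, lay mostly below 0. Of 33 tested, 27 were below 0, against 47.3% of all genes. Both haploid arrays were below both diploid arrays in 20, against 21.7% of all genes. This list too was chosen with earlier results known, and the contrast was not tested. The median was -0.29, or 1.22-fold higher in diploid cells, and ran from -0.30 to -0.19 with any 1 array left out. It was -0.33 with quantile normalization, -0.30 with cyclic loess and -0.32 with the authors' value table. With normexp it was 0.048 on all spots and -0.24 without the spots of high local background. Hmmr, a spindle protein, differed by -0.77 ± 0.22 SE (limma adjusted p = 0.278). Kif23, a cytokinesis motor, differed by -0.52 ± 0.19 and the spindle motor Kif11 by -0.49 ± 0.18. Aurkb and Cenpf did not reach the filter.

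S phase genes lay on both sides of 0. Of 28 tested, 18 lay above and 10 below 0, with a median of 0.083 that was -0.061 with quantile normalization, -0.058 with cyclic loess and -0.065 with the authors' value table. Rfc4, a clamp loader subunit, differed by 0.40 ± 0.20 SE (limma adjusted p = 0.510), Prim1, of DNA primase, by 0.30 ± 0.19, and Chaf1a, a histone chaperone subunit, by -0.26 ± 0.19.

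**Figure D4:**
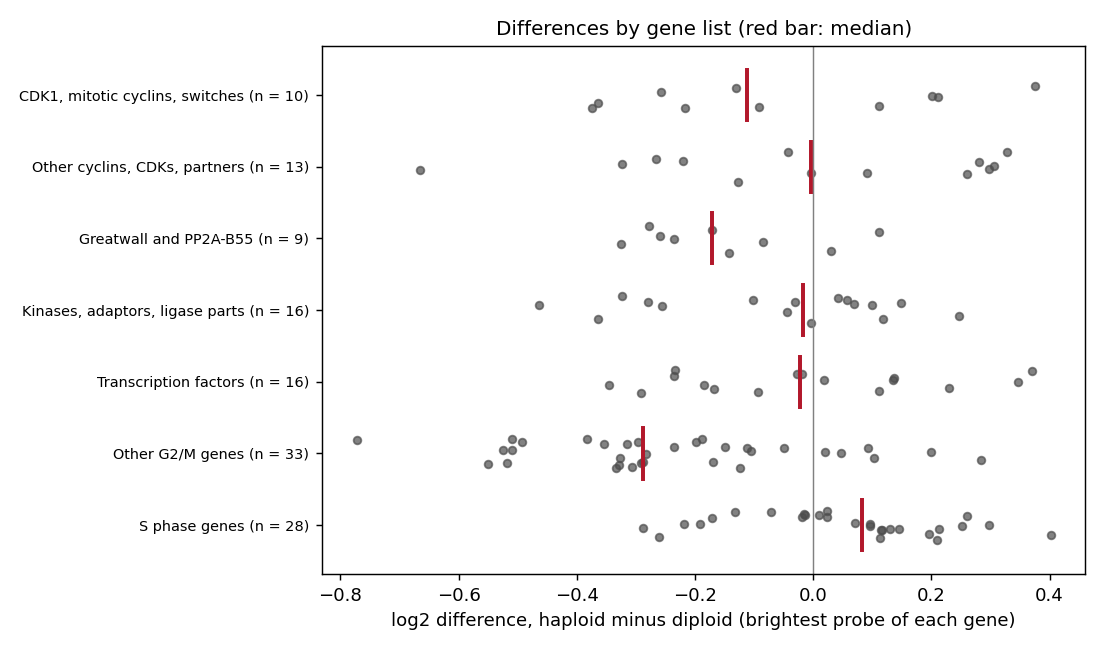
Log2 difference, haploid minus diploid (x axis), of the brightest probe of each gene past the background filter, 1 point per gene, by list (y axis; points spread vertically for sight only), with red bars at the medians. The 10 genes of CDK1 and its switches spread over both sides of 0 around a median of -0.11, and the 33 other G2/M genes lie mostly below 0 around -0.29.

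The promoter letters did not sort the members. Of the 3 with TTTGAA, Cdk1 and Ccnb2 lay above 0 and Plk1 below, and of the 3 without it Ccnb1 lay above and Cdc25a and Cdc25b below. TTTGAA on either strand was found in 22 of the 30 other G2/M genes with a promoter entry and in 3 of 24 S phase genes. Among the other G2/M genes tested, the median difference was -0.29 for the 21 with the letters and -0.20 for the 8 without. Over all genes tested it was 0.040 for the 1286 with the letters and 0.020 for the 9158 without.

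The labelled cell type was checked against markers. All 12 ESC markers cleared the background on each array and 0 of them passed the test. Of the 12, 8 lay above and 4 below 0. Their median difference was 0.096, and it was -0.019 with quantile normalization, -0.014 with cyclic loess and -0.0074 with the authors' value table. Their summed linear level, relative to the 75th percentile, was 287 to 302 in haploid and 246 to 280 in diploid arrays. Fibroblast markers, which feeder cells would carry, were above 0 in 12 of 16, with a median of 0.60 and a summed level of 166 to 167 in haploid and 110 to 130 in diploid arrays. Trophectoderm markers were above 0 in 7 of 9, with a median of 0.82 and a summed level of 18.9 to 21.8 in haploid and 15.5 to 16.1 in diploid arrays. All 3 sums were higher in haploid arrays, and a sum follows the brightest probes of its list. For the fibroblast list these were Sparc (6.89 in haploid replicate 1) and Fn1 (4.89), and the next, Col1a2, read 2.27 on that array. Pdgfra, Pdgfrb, Prrx1, Col5a2, Cdx2, Elf5 and Hand1 did not reach the filter. Tdgf1 (-0.51), Nanog (-0.37), Utf1 (-0.26) and Pou5f1 (-0.026) of the ESC list lay below 0. So did Dcn, Col3a1, Lum and Twist1 of the fibroblast list and Eomes and Tfap2c of the trophectoderm list. Whether feeder or trophectoderm cells were present, and any part of theirs in the members' values, was not tested.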

How the data were processed

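RNA of 4 samples was measured on 1-colour Agilent arrays. Agilent Feature Extraction 11.0.1.1 wrote the scanner files, per the file headers, and their deposited processed signal is a background-subtracted linear intensity. The authors' deposited value table also holds linear intensity, brought to nearly 1 distribution (column medians 28.3 to 28.4) by a method not given in the sources used here. Its log2 values followed the scanner signal (Pearson 0.996 to 0.999 across probes), and it served as an alternative.

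Control spots and spots marked as outliers (121 to 168 of 43020 per array) were left out, signals were divided by each array's 75th percentile and log2 was taken. No spot was saturated. Repeated spots were averaged, and 26043 of 39409 probes were named by RefSeq accession (GRCm38.p6, names and promoters only, as the array design names another build). A probe was kept where both arrays of either group flagged it as well above background. Haploid and diploid arrays were compared probe by probe in R 4.3.3 with limma 3.58.1 (a two-sided moderated test), Benjamini-Hochberg adjusted over all 21784 probes. The series calls the samples of a group independent experiments. The p-values and intervals rest on the spread between them, moderated by limma towards the spread of all probes tested. Of 6.39 total degrees of freedom, 4.39 came from those probes as a prior. The brightest probe (highest mean over the 4 arrays) stood for a gene. Normexp used the median spot signal, since the files hold no mean. The fit was tested on simulated data with independent normal errors, as limma assumes, and with no shift shared by the probes of an array. In these simulated data most changes of 1 log2 unit were missed and most of 2 log2 units were called. The number of arrays limits the precision.

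Named were all members, and from each pathway list any gene that passed and the 3 with the smallest p. The members and lists were chosen with earlier results of these data known. The sources are the labels, files and RefSeq tables. Python 3.11.15, pandas 2.3.3 and numpy 2.4.6 summarised the fits.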

Additional observations from a re-analysis of the deposited data

How the results depend on the processing

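In all 15 alternatives 0 of the 10 genes passed limma's test, and the lowest adjusted p of any was 0.255 (Ccna2). No filter, the filter on all 4 arrays, the brightest probe alone, trend and robust variance and the replicate block left each difference unchanged. No sign could change under them, and the mean of a gene's probes could move only Cdk1 and Ccnb1. Of 150 gene values under the alternatives, these included, 140 kept their sign. The exceptions were Ccnb2 with quantile normalization (-0.038), cyclic loess (-0.043) and the authors' value table (-0.045), Wee1 and Cdc25c without diploid replicate 2, Cdc25c without haploid replicate 1, and Ccna2 (0.0057), Wee1 (0.050), Cdc25a (0.050) and Plk1 (0.19) with normexp on all spots. With 1 array left out Wee1 ran from -0.20 to 0.017 and Cdc25c from -0.39 to 0.13. That correction put the median of all probes at -0.16 and the members' median at 0.12. On diploid replicate 2 the local background reached 43004 at 9 spots above 3 times the array's median, and without those spots the members' median was -0.10. With 1 array left out it ran from -0.23 to 0.021; the lone array was assumed to vary like the other group. The count of probes called over the array moved from 22 to 5 with quantile normalization, 4 with the value table, 101 with normexp after removal of the spots of high local background (98 higher, 3 lower, against 16 and 6), 87 with probes well above background on all 4 arrays, 550 with trend and robust, 258 without haploid replicate 1, 337 without haploid replicate 2 and 0 without either diploid replicate (2743 and 1390 with an unadjusted p under 0.05). It was 0 by limma with cyclic loess, normexp on all spots and no filter, where 2677, 130 and 1990 probes had an unadjusted p under 0.05. Samples of 1 line number are not stated to share an origin (correlation of their deviations 0.0552), and with the replicate number as a block 4 probes were called (1 higher, 3 lower), 0 of them members. Signal over background does not limit the 10 brightest probes, but the 2 dim Cdk1 probes read down to -4.05, where the lowest signal well above background was -5.40 to -4.60.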
